A study of Mus musculus with 2 samples.

Results

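Insulin-like growth factor signalling was examined in mammary basal cells through 10 genes of the count table: the ligand *Igf1*, the receptors *Igf1r* and *Insr*, the adaptors *Irs1* and *Irs2*, and the binding proteins *Igfbp2*, *Igfbp3*, *Igfbp4*, *Igfbp5* and *Igfbp7*. They were chosen by name for their place in this pathway and found as 10 of 49492 genes in the table. All 10 held at least 20 counts over both libraries, as did 17356 genes in all. The cells were sorted from adult wild-type female mice as the lin−CD24+CD29hi population, the outer, contractile layer of the mammary duct and the compartment in which mammary stem cells lie, with a gate that leaves out cells with CD45, CD31 or TER119. CL basal came from mice injected with clodronate liposomes (CL), lipid vesicles that kill the macrophages that engulf them, and Ctrl basal came from control mice, labelled as untreated in the sample record and as given saline in the design text. Both were labelled day 7, and with 1 library in each group every difference below is without replicates. Whether a library pooled several animals was not given in the sources used here.

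IGF1 is made largely by stromal cells and macrophages in many tissues and acts on neighbouring epithelium, and in the mammary gland it is known for its part in ductal growth downstream of growth hormone. It binds the receptor tyrosine kinase IGF1R and, more weakly, the closely related insulin receptor. Both receptors phosphorylate the docking proteins IRS1 and IRS2, which recruit PI3K and so activate AKT, whose substrates include the FOXO transcription factors. The IGF binding proteins are secreted and hold IGF in the extracellular space, where they can lower its access to the receptor or keep a local store of it, and proteases such as PAPP-A release it by cutting some of them. IGFBP7 is a distant relative with low affinity for IGF.

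The upstream sequences of the pair of adaptors, which were both slightly higher in CL basal, and of 2 binding proteins, of which *Igfbp2* was lower and *Igfbp3* higher, are shown so that genes of like role can be read side by side. Each is the run of 250 bases before a RefSeq transcript start (GRCm38.p6), 5′ to 3′ on the gene's strand, and none of the 4 overlaps an exon of the table. Capitals mark matches, on either strand, to any of 5 short motifs (GC box, CCAAT box, TATA box, FOXO motif and insulin response motif), whose letters follow the sequences. The windows are chr1:82291440-82291689 (minus strand) for *Irs1*, chr8:11008930-11009179 (minus) for *Irs2*, chr1:72824230-72824479 (plus) for *Igfbp2* and chr11:7213924-7214173 (minus) for *Igfbp3*.
Irs1: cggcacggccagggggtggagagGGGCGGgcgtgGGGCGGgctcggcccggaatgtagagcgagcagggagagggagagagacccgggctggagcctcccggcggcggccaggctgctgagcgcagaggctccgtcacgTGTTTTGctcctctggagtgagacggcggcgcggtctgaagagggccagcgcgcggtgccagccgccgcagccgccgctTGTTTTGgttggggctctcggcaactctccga
Irs2: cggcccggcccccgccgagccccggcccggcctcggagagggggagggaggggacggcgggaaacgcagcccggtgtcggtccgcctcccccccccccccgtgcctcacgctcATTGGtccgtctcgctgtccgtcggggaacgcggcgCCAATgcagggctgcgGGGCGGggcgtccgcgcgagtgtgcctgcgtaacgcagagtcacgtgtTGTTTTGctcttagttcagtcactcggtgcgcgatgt
Igfbp2: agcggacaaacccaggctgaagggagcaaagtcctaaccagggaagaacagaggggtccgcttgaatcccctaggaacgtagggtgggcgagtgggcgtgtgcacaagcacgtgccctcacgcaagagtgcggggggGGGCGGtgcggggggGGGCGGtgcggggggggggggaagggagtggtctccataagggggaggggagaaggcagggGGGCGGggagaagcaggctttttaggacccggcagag
Igfbp3: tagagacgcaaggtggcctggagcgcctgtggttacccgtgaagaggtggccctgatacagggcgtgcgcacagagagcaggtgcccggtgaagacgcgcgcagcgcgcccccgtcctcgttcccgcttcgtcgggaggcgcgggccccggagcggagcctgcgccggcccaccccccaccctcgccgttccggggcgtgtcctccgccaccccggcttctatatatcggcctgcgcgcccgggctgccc

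Of the members, 9 had a RefSeq window, in 10 windows. The extra window was that of another start of *Igfbp2* (chr1:72825137-72825386), which is not shown. It held 0 motif matches, was 56.4% G and C, and overlapped exons of the table by 65 bases. The insulin response motif, searched as CAAAACA on both strands, was found in 2 of the 10 windows, those of *Irs1* and *Irs2*, and in 5.56% of all 32851 windows of this length. The GC box, GGGCGG, was found in 5 of the 10, those of *Igf1r*, *Igfbp2*, *Igfbp7*, *Irs1* and *Irs2*, against 32.7% of all windows. The TATA box, TATAAA, was found in 1, that of *Igfbp4*, against 12.4% of all windows. The CCAAT box was found in those of *Igf1* and *Irs2*, against 33.8%. The FOXO motif, GTAAACA, was found in 0 of the 10, against 3.17%. The FOXO and insulin response motifs share 5 letters in a row, AAACA, but no window position can match both. The 4 windows shown were rich in G and C, from 67.2% in *Igfbp2* to 73.2% in *Igfbp3*, against a median of 52.4% over all windows. A match describes the letters only.

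The libraries held 37846008 counts in Ctrl basal and 38962512 in CL basal. The basal and myoepithelial markers were present at high levels, with all 12 measured and a median log2 ratio of 0.08. Markers of other cells were present too and were mostly lower in CL basal. Of 15 luminal markers 15 were lower (median log2 ratio -0.86, summed level 5752 CPM in Ctrl basal and 3469 in CL basal), of 12 fibroblast markers 11 (median -0.48, 329.1 and 273.6 CPM), of 10 endothelial markers 8 (median -0.31, 577.5 and 463.8 CPM, where CPM is counts scaled to library size) and of 7 pericyte markers 6 (median -0.71, 372.2 and 356.5 CPM). *Mcam* (8887 and 10212 counts, log2 ratio 0.20) held 62.3% and 74.5% of the pericyte counts, and the other 6 pericyte markers summed to 140.4 and 90.9 CPM. Of 8 adipocyte markers, 5 had enough counts and all 5 were lower (median -0.45, 168.5 and 134.4 CPM). *Fabp4* held 71.9% and 67.1% of the adipocyte counts, and the other 7 markers summed to 47.3 and 44.3 CPM. *Adipoq*, with too few counts to be among the 5, had 5 in Ctrl basal and 10 in CL basal. The 15 macrophage markers summed to 36.45 CPM in Ctrl basal and 33.86 in CL basal, with 8 of the 10 that had enough counts lower (median -0.15). The 95% counting interval of the ratio left out equal levels for 2 of the 10 on the lower side and 1 on the higher. Over all genes these shares were 25.4% and 25.2%. *Ptprc* held 38.4% and 40.0% of the macrophage marker counts. *Fcgr1* had 0 counts in Ctrl basal and 4 in CL basal, and *Adgre1*, a defining macrophage gene, had 7 and 10. *Ptprc*, which encodes CD45, had 537 and 521 counts and *Pecam1*, which encodes CD31, 5503 and 4266, although the gate leaves out cells with either. Fewer cells of a type and less RNA per cell cannot be told apart in bulk libraries.

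**Figure D1:**
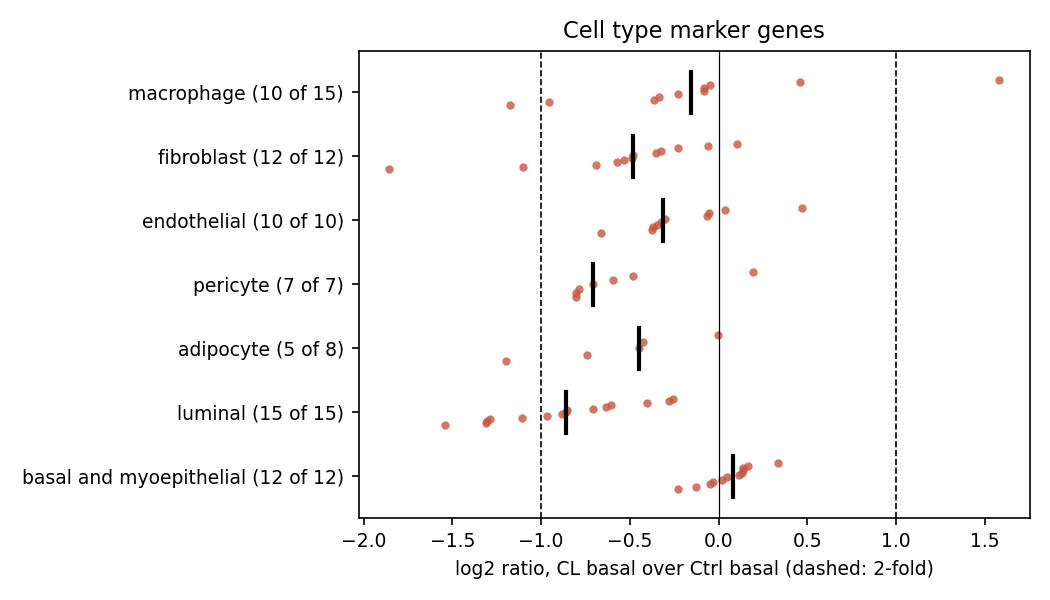
Each point is the log2 ratio of CL basal over Ctrl basal (horizontal axis) for a marker gene with at least 20 counts over both libraries, by cell type (vertical axis, with the number of genes plotted of those listed), and each black bar is the median of a list. The luminal, pericyte, fibroblast, adipocyte and endothelial medians lie below 0 (from -0.86 to -0.31), while the basal and myoepithelial median is 0.08.

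Of the 10 members, 1 changed by at least 2-fold between the libraries, *Igf1*, which was lower in CL basal. Over all 17356 genes with enough counts, 6.86% were past 2-fold, 4.79% on the lower side and 2.07% on the higher, so 1 of 10 is near this background. With the 1.5-fold threshold, which 18.0% of all genes passed (11.7% lower and 6.33% higher), *Igf1* was again the only member. The members split evenly by sign, with 5 lower and 5 higher, and their median log2 ratio was -0.04, against -0.01 over all genes. Their summed counts were nearly level, 86738 in Ctrl basal and 88879 in CL basal, or 0.229% and 0.228% of the libraries. The 95% interval of the ratio (exact Clopper-Pearson, counting error only) left out equal levels for 8 of the 10, 4 lower and 4 higher. This was so for 50.6% of all genes, 25.4% lower and 25.2% higher, at this depth. These shares are not matched for counts, on which the width of an interval depends. Under 100 counts over both libraries were held by 3849 of the 17356 genes, whereas the member with the fewest, *Igf1*, had 166.

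**Figure D2:**
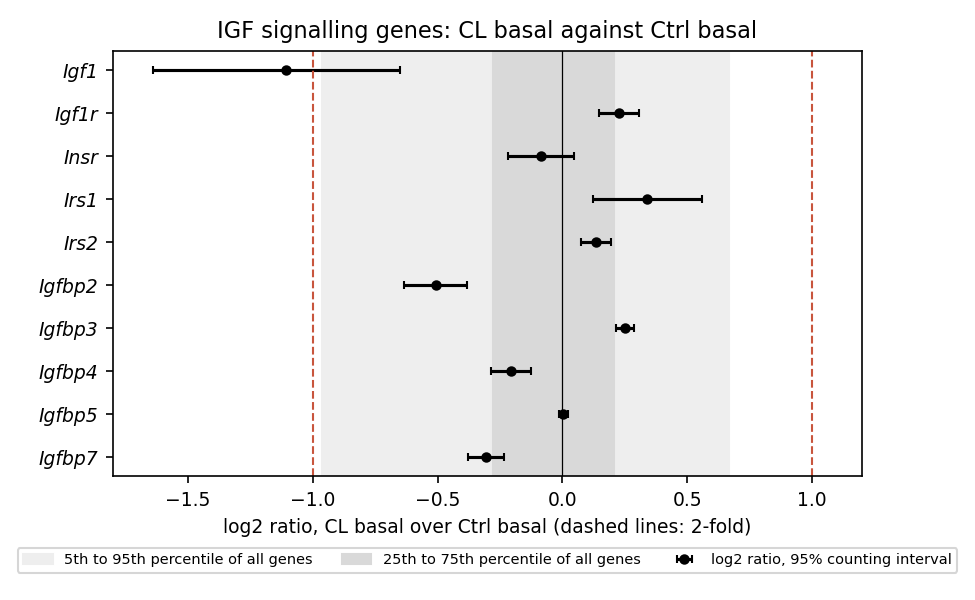
Log2 ratio of CL basal over Ctrl basal (horizontal axis) for each of the 10 genes (vertical axis), with bars for the 95% counting interval, grey bands for the spread of all 17356 genes and dashed lines at 2-fold. *Igf1* alone lies past the 2-fold line, at -1.11, and the other 9 genes lie between -0.51 and 0.34.

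The ligand *Igf1* (ENSMUSG00000020053.18, chromosome 10, 87858265 to 87937042, plus strand) was the least abundant member in both libraries. It had 114 counts in Ctrl basal and 52 in CL basal. Scaled to library size and to its 9904 exonic bases, this was a level of 0.300 CPM per kilobase in Ctrl basal (95% exact Poisson interval 0.248 to 0.361) and 0.137 in CL basal (0.102 to 0.179). The log2 ratio was -1.11 (95% interval -1.64 to -0.65). Without the prior count of 2 that the log2 ratio includes, CL basal held 45.5% of the control level. *Igf1* falls in the band of 6410 genes whose summed counts were at least 100 and under 1000, of which 3.26% were past 2-fold on the lower side. Only 13.3% of genes with enough counts had a lower length-scaled level in Ctrl basal, and 6.4% in CL basal. Among cells that are known to make IGF1, the fibroblast markers were lower by a median of 0.48 on the log2 scale and the macrophage markers by 0.15, and the part of such cells in the *Igf1* value was not tested. Single macrophage markers went both ways, from 16 and 6 counts of *C1qc* (log2 ratio -1.17) to 28 and 88 of *Mpeg1* (1.58). The fibroblast markers ran from -1.86 for *Lum* to 0.10 for *Col3a1*.

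The ligand's close relative *Igf2*, a fetal growth factor, was more abundant than *Igf1* in these cells, at a length-scaled level of 6.42 in Ctrl basal and 4.49 in CL basal. It had 1410 and 988 counts, a log2 ratio of -0.52 (-0.64 to -0.40), and it shares 98 exonic bases with *Igf2os* on the other strand, which had 6 counts in each library. The ratio of *Igf2* to *Igf1* in length-scaled level was 21.4 in Ctrl basal and 32.9 in CL basal. *Ins2*, an insulin gene, had 1 and 0 counts. Both growth factors of the pathway were therefore lower in CL basal, *Igf1* at a low count and *Igf2* short of 2-fold. Beside the *Igf2* value, the median log2 ratio was -0.48 for fibroblast, -0.71 for pericyte and -0.31 for endothelial markers. The part of such cells in the *Igf2* value was not tested.

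The receptors stayed close to level. *Igf1r* (chromosome 7, 67952827 to 68233668, plus strand) had 2403 counts in Ctrl basal and 2818 in CL basal, a log2 ratio of 0.23 (0.15 to 0.31). *Insr* (chromosome 8, 3122061 to 3279617, minus strand) had 960 and 907 counts, a log2 ratio of -0.09, and its interval (-0.22 to 0.05) included equal levels. *Igf1r* was the more abundant receptor in both libraries, with length-scaled levels of 3.73 and 4.37. *Insr* had 1.82 and 1.72, so the ratio of the receptors was 2.05 in Ctrl basal and 2.54 in CL basal. *Igf2r*, which clears IGF2 by carrying it to lysosomes, had 3099 and 3568 counts (log2 ratio 0.20, 0.13 to 0.27). *Insrr*, an orphan relative of these receptors, had 24 counts in Ctrl basal and 2 in CL basal, a log2 ratio of -2.70 with an interval from -6.71 to -1.58. The width of this interval shows how little the depth fixes its size.

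The adaptors were both higher in CL basal, by less than 1.5-fold. *Irs1* (chromosome 1, 82233101 to 82291416, minus strand) had 312 counts in Ctrl basal and 396 in CL basal, a log2 ratio of 0.34 (0.12 to 0.56), the highest of the 10 members. *Irs2* (chromosome 8, 10984681 to 11008458, minus strand) had 4223 and 4644 counts, a log2 ratio of 0.13 (0.07 to 0.19). *Irs2* was the main adaptor by length-scaled level in both libraries, 17.4 and 19.1, against 0.890 and 1.13 for *Irs1*. Of the 9144 exonic bases of *Irs1*, 2822 are shared with *Gm9747* on the other strand, which had 128 and 151 counts. Since the use of strand in the counting was not given in the sources used here, part of the *Irs1* value is uncertain. *Irs2* shares 162 bases with *9530052E02Rik* on the other strand (160 and 156 counts). *Irs4*, another docking protein, had 12 and 26 counts (log2 ratio 0.997, 0.07 to 2.23). The prior count puts it just short of 2-fold, and it was past 2-fold, on the higher side, with a prior count of 0.5 (1.08), with DESeq2 size factors, with upper quartile scaling and with the deeper library thinned.

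The binding proteins held most of the counts of the 10 members, 78726 of 86738 in Ctrl basal. *Igfbp5* (chromosome 1, 72857932 to 72874884, minus strand) had 59176 counts in Ctrl basal and 59499 in CL basal, and alone held 68.2% and 66.9% of the counts of the 10 members. Its log2 ratio was 0.004, with an interval from -0.01 to 0.02, the narrowest of the 10. Its length-scaled level of 257 in Ctrl basal and 258 in CL basal was above that of 98.9% and 98.8% of genes with enough counts. *Igfbp3* (chromosome 11, 7206086 to 7213923, minus strand), the main carrier of IGF in serum, had 12275 counts in Ctrl basal and 14638 in CL basal, a log2 ratio of 0.25 (0.22 to 0.28), or 118.9% of the control level.

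*Igfbp2*, *Igfbp4*, *Igfbp6* and *Igfbp7* were lower in CL basal, each by less than 1.5-fold. *Igfbp2* (chromosome 1, 72824503 to 72852474, plus strand) had 1232 and 869 counts, a log2 ratio of -0.51 (-0.63 to -0.38), or 70.4% of the control level. *Igfbp7* (chromosome 5, 77349240 to 77408041, minus strand) had 3379 and 2741 counts, a log2 ratio of -0.31 (-0.38 to -0.23). *Igfbp4* (chromosome 11, 99041244 to 99054392, plus strand), an inhibitor of IGF action that PAPP-A cuts, had 2664 and 2315 counts, a log2 ratio of -0.21 (-0.29 to -0.13). *Igfbp6*, which prefers IGF2, had 2270 and 2060 counts, a log2 ratio of -0.14 (-0.23 to -0.06). *Igfbp7* is known as a product of blood vessel cells, and the endothelial markers had a median log2 ratio of -0.31 and the pericyte markers one of -0.71. Its 1209 exonic bases include 85 shared with *Polr2b* on the other strand, which had 3187 and 3691 counts. The luminal markers had a median of -0.86, lower than the log2 ratio of any of these binding proteins. The part of any of these cell types in the binding protein values was not tested.

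**Figure D3:**
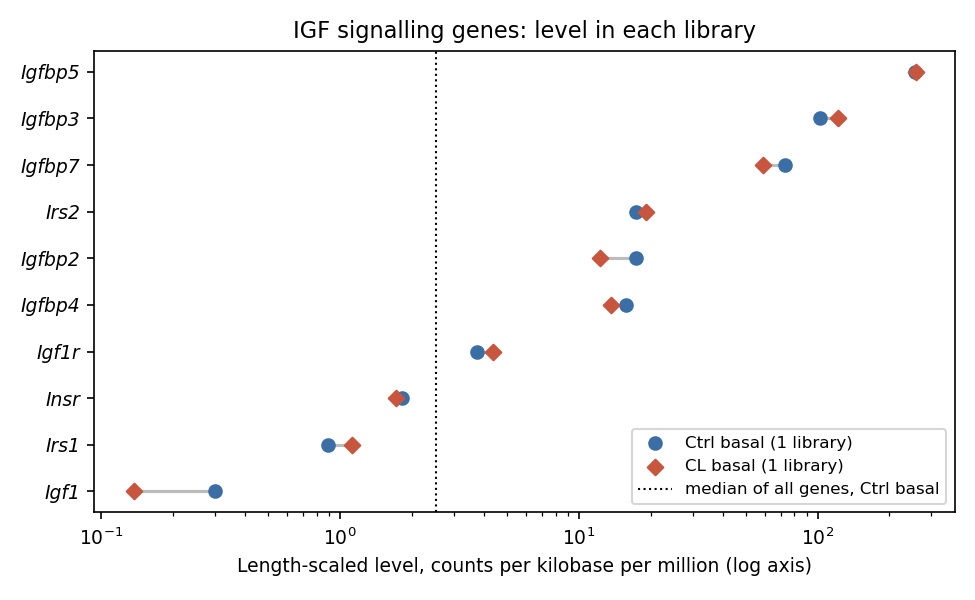
Length-scaled level of each of the 10 genes (vertical axis) in CPM per kilobase on a log axis, with a circle for Ctrl basal, a diamond for CL basal and a dotted line at the median of all genes in Ctrl basal (2.52). The genes span from 0.137 (*Igf1*, CL basal) to 258 (*Igfbp5*, CL basal), and, with the table's exonic lengths, the order changes between the libraries for *Igfbp2* and *Igfbp4* only.

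By length-scaled level in Ctrl basal, the members ran in the order *Igfbp5*, *Igfbp3*, *Igfbp7*, *Irs2*, *Igfbp2*, *Igfbp4*, *Igf1r*, *Insr*, *Irs1* and *Igf1*. *Irs2* (17.4, 95% exact Poisson interval 16.9 to 17.95) and *Igfbp2* (17.4, 16.4 to 18.4) could not be separated within counting error. In CL basal *Igfbp2* (12.2, 11.4 to 13.1) lay below *Igfbp4* (13.6, 13.1 to 14.2), with intervals that met, while in Ctrl basal *Igfbp4* (15.7, 15.1 to 16.3) was below *Igfbp2*. This swap depends on the gene length used: with the longest annotated transcript *Igfbp2* was above *Igfbp4* in both libraries (24.6 and 18.1 in Ctrl basal, 17.3 and 15.7 in CL basal), and *Irs2* (17.4 and 19.1) was below both in Ctrl basal and above both in CL basal. With the table's lengths, all other neighbours in the order had intervals that did not overlap in either library, for counting error alone.

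Among the 7 numbered binding proteins, *Igfbp5* held 49.5% of the summed length-scaled level in Ctrl basal and 50.3% in CL basal. The share of *Igfbp3* was 19.7% and 23.7%, that of *Igfbp7* 14.1% and 11.5%, and that of *Igfbp6* 10.3% and 9.41%. *Igfbp2* held 3.35% and 2.39%, and *Igfbp4* 3.03% and 2.66%. The sum of the 7 levels was 518.5 in Ctrl basal and 512.3 in CL basal. The pool was thus of nearly the same size in both libraries, with *Igfbp3* taking a larger share in CL basal and *Igfbp7* and *Igfbp2* smaller ones.

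Some of these genes are neighbours in the genome. *Igfbp2* and *Igfbp5* lie 5457 bases apart on chromosome 1 and point towards each other, and their log2 ratios were -0.51 and 0.004. *Igfbp1* and *Igfbp3* lie 3539 bases apart on chromosome 11. *Igfbp1*, a binding protein made chiefly by liver, had 4 counts in Ctrl basal and 0 in CL basal, where a count of 0 allows up to 3 counts or 0.0780 CPM, while *Igfbp3* stood at 320.1 and 380.7 CPM. *Igfals*, which holds IGF in the large serum complex, had 4 and 7 counts and *Igfbpl1* had 5 and 0, so no difference was detectable for these 3 genes at this depth.

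**Figure D4:**
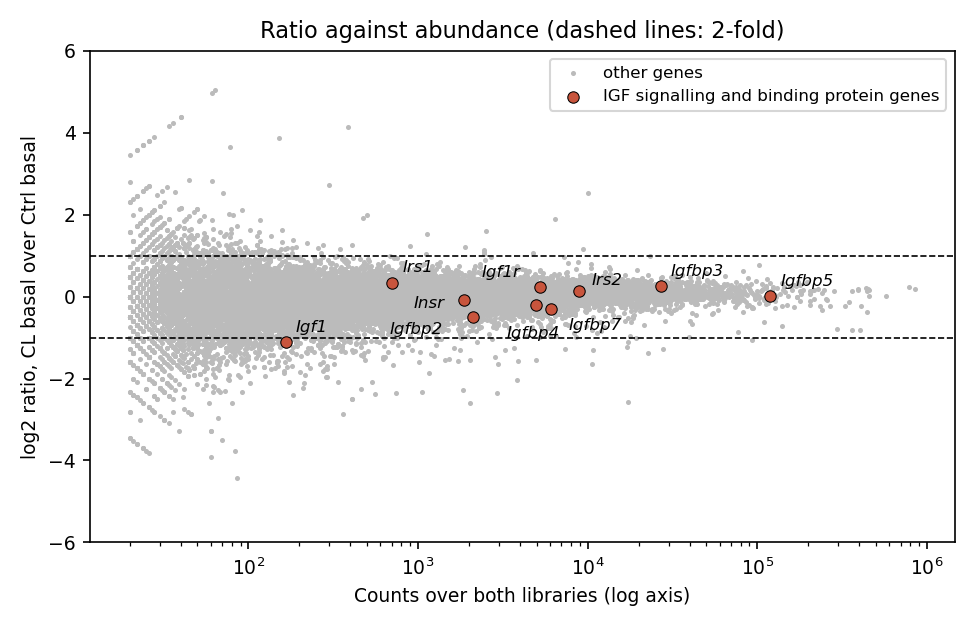
Log2 ratio of CL basal over Ctrl basal (vertical axis) against counts over both libraries on a log axis (horizontal axis), with the 10 genes in red, other genes in grey and dashed lines at 2-fold. Ratios spread widely at low counts, and *Igf1* (166 counts) lies just past the lower dashed line, whereas the binding proteins, receptors and adaptors lie between the lines.

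The rest of the pathway was read from 7 lists of 83 genes, of which 78 had at least 20 counts. In CL basal 36 of the 78 were lower and 42 higher, and 1 was past 2-fold, *Insrr*, a share of 1.28% against 6.86% over all genes. That background is set largely by genes with few counts, whereas 61 of the 78 had at least 1000 and under 10000 counts, a band in which 0.715% of all genes were past 2-fold. *Insrr* lay in the band from 20 to under 100 counts, in which 15.2% of all genes were past 2-fold on the lower side. The list of other IGF axis genes had 5 of 9 genes measured with a median log2 ratio of -0.14, and all 9 are given above.

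Of 8 proteases that cut the binding proteins and their inhibitors, 7 were measured, 6 lower and 1 higher, with a median log2 ratio of -0.13. The interval left out equal levels for 5 of the 6, but not for *Pappa2*, a relative of *Pappa* (163 and 162 counts, -0.34 to 0.31). Over all genes, of any count, it did so on the lower side for 25.4%. *Adam12*, a metalloprotease that can cut IGFBP3 and IGFBP5, had 1128 counts in Ctrl basal and 663 in CL basal (-0.77, -0.91 to -0.63). *Htra1*, a secreted serine protease, had 1998 and 1237 counts (-0.69, -0.80 to -0.59). *Pappa*, which encodes PAPP-A, was the one measured gene of the list that was higher, with 927 and 1044 counts (0.17, 0.04 to 0.30). Beside these values, the fibroblast markers had a median of -0.48 and the pericyte markers one of -0.71, and their part in the protease values was not tested. None of the 7 reached 2-fold, and *Adam12* and *Htra1* were past 1.5-fold, on the lower side, as were 11.7% of all genes.

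Upstream of the ligand, the 6 genes of growth hormone and oestrogen input had ratios at or below 0, with a median log2 ratio of -0.16. The interval left out equal levels for 3 of the 6, against 25.4% of all genes on the lower side. Beside these values, the luminal markers had a median of -0.86, and their part was not tested. *Esr1*, the oestrogen receptor and also a marker of luminal cells, had 374 and 246 counts (-0.60, -0.85 to -0.37). *Socs2*, a growth hormone target, had 780 counts in each library (-0.004).

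Below the receptors, the PI3K-AKT-mTOR list had all 24 genes measured, 9 lower and 15 higher, with a median log2 ratio of 0.06 and 0 past 2-fold. Its values ran from -0.39 for *Tsc2*, a brake on mTOR (1139 and 872 counts), to 0.42 for *Pik3r3*, a regulatory subunit of PI3K (791 and 1064 counts). The RAS-MAPK list had 14 genes, 4 lower and 10 higher, with a median of 0.07. Its values ran from -0.35 for the kinase *Mapk3* (673 and 528 counts) to 0.31 for *Sos1*, a RAS exchange factor (2647 and 3285 counts). Both arms thus stayed within 1.5-fold in every gene listed.

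Genes that dampen the receptors went both ways, 4 of 10 lower and 6 higher, with a median log2 ratio of 0.07. *Grb14*, an inhibitor of the insulin receptor, had 246 and 146 counts (-0.75, -1.06 to -0.46). *Socs1*, a feedback inhibitor that also answers to cytokines, had 109 and 164 counts (0.58, 0.23 to 0.95). Of 12 FOXO target genes, 4 were lower and 8 higher, with a median of 0.11 and 0 past 2-fold. They ran from -0.44 for the ubiquitin ligase *Fbxo32* (4833 and 3562 counts) to 0.31 for *Bcl2l11*, which encodes the cell death protein BIM (950 and 1180 counts).

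**Figure D5:**
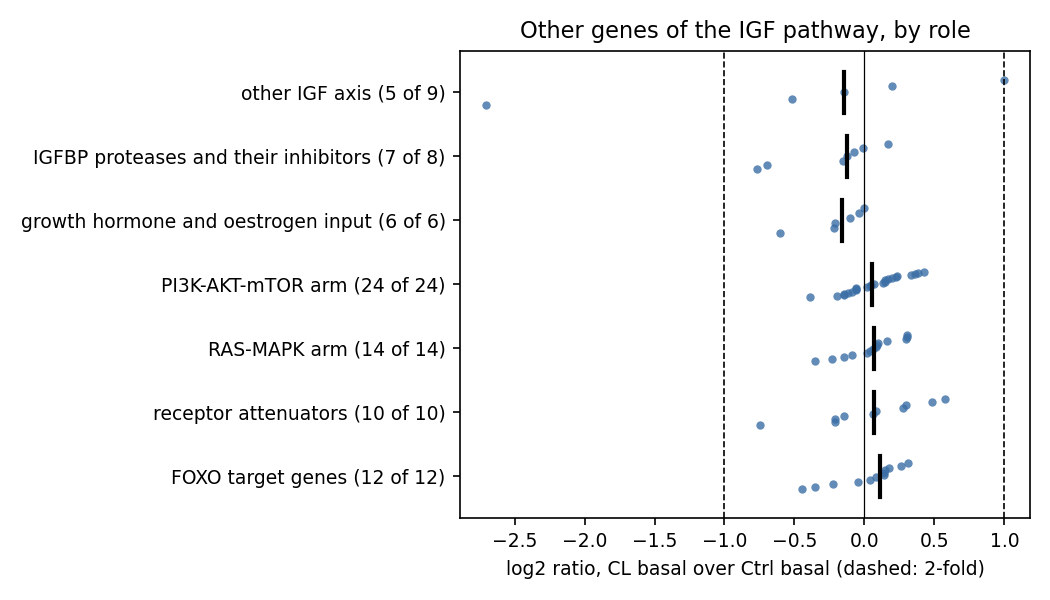
Each point is the log2 ratio of CL basal over Ctrl basal (horizontal axis) of a pathway gene with at least 20 counts, by list (vertical axis, with the number plotted of those listed), black bars are medians and dashed lines mark 2-fold. All 7 medians lie between -0.16 and 0.11, and *Insrr* at -2.70 is the only gene past a dashed line, with *Irs4* just short of the other.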

How the data were processed

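RNA of sorted mammary basal cells was sequenced from control and clodronate liposome treated mice, 1 library each. The authors deposited raw read counts per gene over annotated exons, not normalized. Per the labels the build was GRCm38, and all 10 members had the same start and end in GENCODE M21. The aligner, strand setting and read filters were not given in the sources used here. Deposited columns of a ratio and its log2 were not used.

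Counts were scaled by TMM factors, computed on genes whose summed counts reached 20 (edgeR 4.0.16, R 4.3.3), 1.013 for Ctrl basal and 0.987 for CL basal. Log2 ratios used a prior count of 2. Levels between genes are CPM (counts scaled to library size) per kilobase of exon. Intervals of 95% (scipy 1.17.1) cover counting error only, and low counts were mostly even (67.9% and 68.7% of values from 1 to 20), against 49.7% and 49.9% of values over 1000. If both reads of a pair were counted, which was not given, the intervals are too narrow. With 1 library per group no replicate model could be fitted and no p-value is given. A gene is past a threshold by its fold alone. The ratio and interval code was tested on simulated data.

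The members and lists were chosen with earlier results of these data known. All members, all other IGF axis genes, and of each other pathway list the highest, the lowest and any gene past 2-fold were named. *Htra1*, *Pappa2*, *Mcam*, *Fabp4*, *Adipoq*, *Lum*, *Col3a1*, *C1qc*, *Mpeg1*, *Fcgr1*, *Adgre1*, *Ptprc* and *Pecam1* were named after their values were seen. Alternatives were other scalings (DESeq2 1.42.0 among them), prior counts, filters, a thinned library, 1.5-fold, halved counts, an assumed spread between animals and another gene length. Protein sequences were not used here.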

Additional observations from a re-analysis of the deposited data

How the results depend on the processing

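*Igf1* was the only member past 2-fold under every scaling, prior count, filter and threshold tried and with the deeper library thinned. Of 60 log2 ratios of members under these alternatives, 58 stayed within the 95% interval of the main value. The other 2 came from scaling by library totals, which put *Igfbp3* at 0.21 and *Igfbp5* at -0.03 and moved the median of all genes from -0.007 to -0.04. The sign of *Igfbp5* thus depends on the scaling. The log2 ratio of *Igf1* ran from -1.14 to -1.07.

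The intervals depended most on the spread assumed between animals. With counts halved, 8 of 10 members still left out equal levels. With an assumed coefficient of variation of 0.2 between animals 1 did, *Igf1* (-2.07 to -0.21), and with 0.4 there were 0. The number of pathway genes past 2-fold was 2 of 78 (*Insrr* and *Irs4*) with upper quartile scaling, DESeq2 size factors, the thinned library or a prior count of 0.5. Over all genes these settings gave, in the same order, 1170 of 17356, 1171 of 17356, 1175 of 17316 and 1298 of 17356. Without a filter on low counts it was 4 of 83, against 4550 of 24944 over all genes. With at least 100 counts it was 0 of 76, against 312 of 13507. At the 1.5-fold threshold 6 of 78 passed, against 3127 of 17356, or 18.0%. With the longest annotated transcript as gene length, *Igfbp5* held 46.0% of the binding protein level in Ctrl basal in place of 49.5%. The order of the 7 binding proteins was then the same in Ctrl basal, while in CL basal *Igfbp2* and *Igfbp4* changed places. No paired analysis was possible because the groups hold a single library each. Depth limits *Igf1*, *Insrr*, *Irs4*, *Igfbp1*, *Igfals*, *Igfbpl1* and *Ins2*.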
